A study of Mus musculus with 15 samples.

Results

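Fatty acid oxidation was followed in periprostatic fat, the adipose tissue around the prostate, through 42 genes of mitochondrial beta-oxidation, peroxisomal oxidation and peroxisome assembly, out of 23995 gene symbols measured. The genes were taken by symbol from a list and all 42 were found. They fell into 17 mitochondrial genes, 3 genes whose products are known from both compartments, 11 peroxisomal genes and 11 peroxins, the proteins that build peroxisomes. RNA was sequenced from 15 male C57BL/6J mice aged 26 weeks, 5 in each of 3 groups, which had eaten their diets from 6 weeks of age. The HFD estradiol mice were fed a diet (HFD) that drew 60 kcal% from fat and, after 12 weeks of diet, received a subcutaneous pellet of 0.25 mg 17[beta]-estradiol releasing over 60 days, and were studied 8 weeks later. HFD placebo mice were fed the same diet and received a placebo pellet at the same time. LFD mice were fed a diet that drew 10 kcal% from fat and had no implantation, so diet and pellet cannot be told apart between LFD and the other groups. Each library is 1 mouse, and values are FPKM, fragments set per transcript length and per library depth, rescaled by 1 factor per library and called scaled FPKM below.

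Beta-oxidation shortens fatty acids by repeated rounds of dehydrogenation, hydration, a second dehydrogenation and thiolysis. Long-chain acyl groups enter mitochondria as carnitine esters, and the electrons released there pass through the electron transfer flavoprotein into the respiratory chain. Peroxisomes import acyl-CoA through ABC transporters of the D family, shorten very long and branched chains with enzymes of their own, and hand the products on to mitochondria. White adipocytes are known mainly for storing and releasing fatty acids, and brown adipocytes for burning them.

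Library content bears on these genes, so it is given first. Adipocyte markers were high in every library, with summed levels over 12 markers of 1770 to 2480 scaled FPKM in HFD estradiol mice, 1080 to 1710 in HFD placebo mice and 1880 to 2820 in LFD mice. The sum of 12 macrophage markers was 56.9 to 168 scaled FPKM in HFD estradiol mice, 179 to 519 in HFD placebo mice and 43 to 111 in LFD mice. Brown fat markers stood apart in single mice: Ucp1, the uncoupling protein that defines brown fat, was at 34.2 scaled FPKM in LFD 2, 26.6 in placebo 4, 13.5 in placebo 3 and 4.96 in estradiol 3, and at most 2.47 in the other 11 libraries. The sum of 8 brown fat markers was 5.33 to 26.1 scaled FPKM in HFD estradiol mice, 2.84 to 67.4 in HFD placebo mice and 8.86 to 95.7 in LFD mice. Skeletal muscle markers reached sums of 17.5 in estradiol 3 and 32.7 in LFD 4, and prostate epithelium markers a sum of 705 in LFD 5 against at most 0.936 in HFD estradiol and 0.714 in HFD placebo mice. All HFD estradiol libraries were sequenced on lane 6 and all LFD libraries on lane 5, with placebo 1 to 3 on lane 5 and placebo 4 and 5 on lane 6. In bulk tissue, fewer cells of a type and less RNA per cell cannot be told apart.

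Of the 42 genes, 35 reached the level needed for testing, scaled FPKM 1 or more in 5 or more of the libraries, and Cpt1b, Decr2, Pecr, Pex2, Pex6, Pex10 and Pex11a did not. A gene could reach this level through the groups in which it was high. Hacl1 did so with every HFD placebo value below 1, and Ehhadh did so mainly through LFD mice. Differences were tested with limma on log2(scaled FPKM + 1) over all 5615 tested genes, with p adjusted by Benjamini and Hochberg and called under 0.05. A fold change on this scale understates the change of low genes. Between HFD estradiol and HFD placebo, 7 of the 35 genes were called higher, or 20% of them, where 14.3% of all tested genes were, and 1 was called lower, or 2.86%, where 16% of all tested genes were. Between HFD placebo and LFD, 1 gene was called higher, 2.86% against a background of 21.3%, and 16 were called lower, 45.7% against a background of 22%. Between HFD estradiol and LFD no gene was called higher, where the background was 3.95%, and 2 were called lower, 5.71% against a background of 3.74%. The groups did not overlap for 3 of the 35 genes between HFD estradiol and HFD placebo (21.2% of all tested genes), for 7 between HFD placebo and LFD (27.6%) and for 4 between HFD estradiol and LFD (8.05%). The comparisons share libraries and are not independent of each other.

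**Figure D1:**
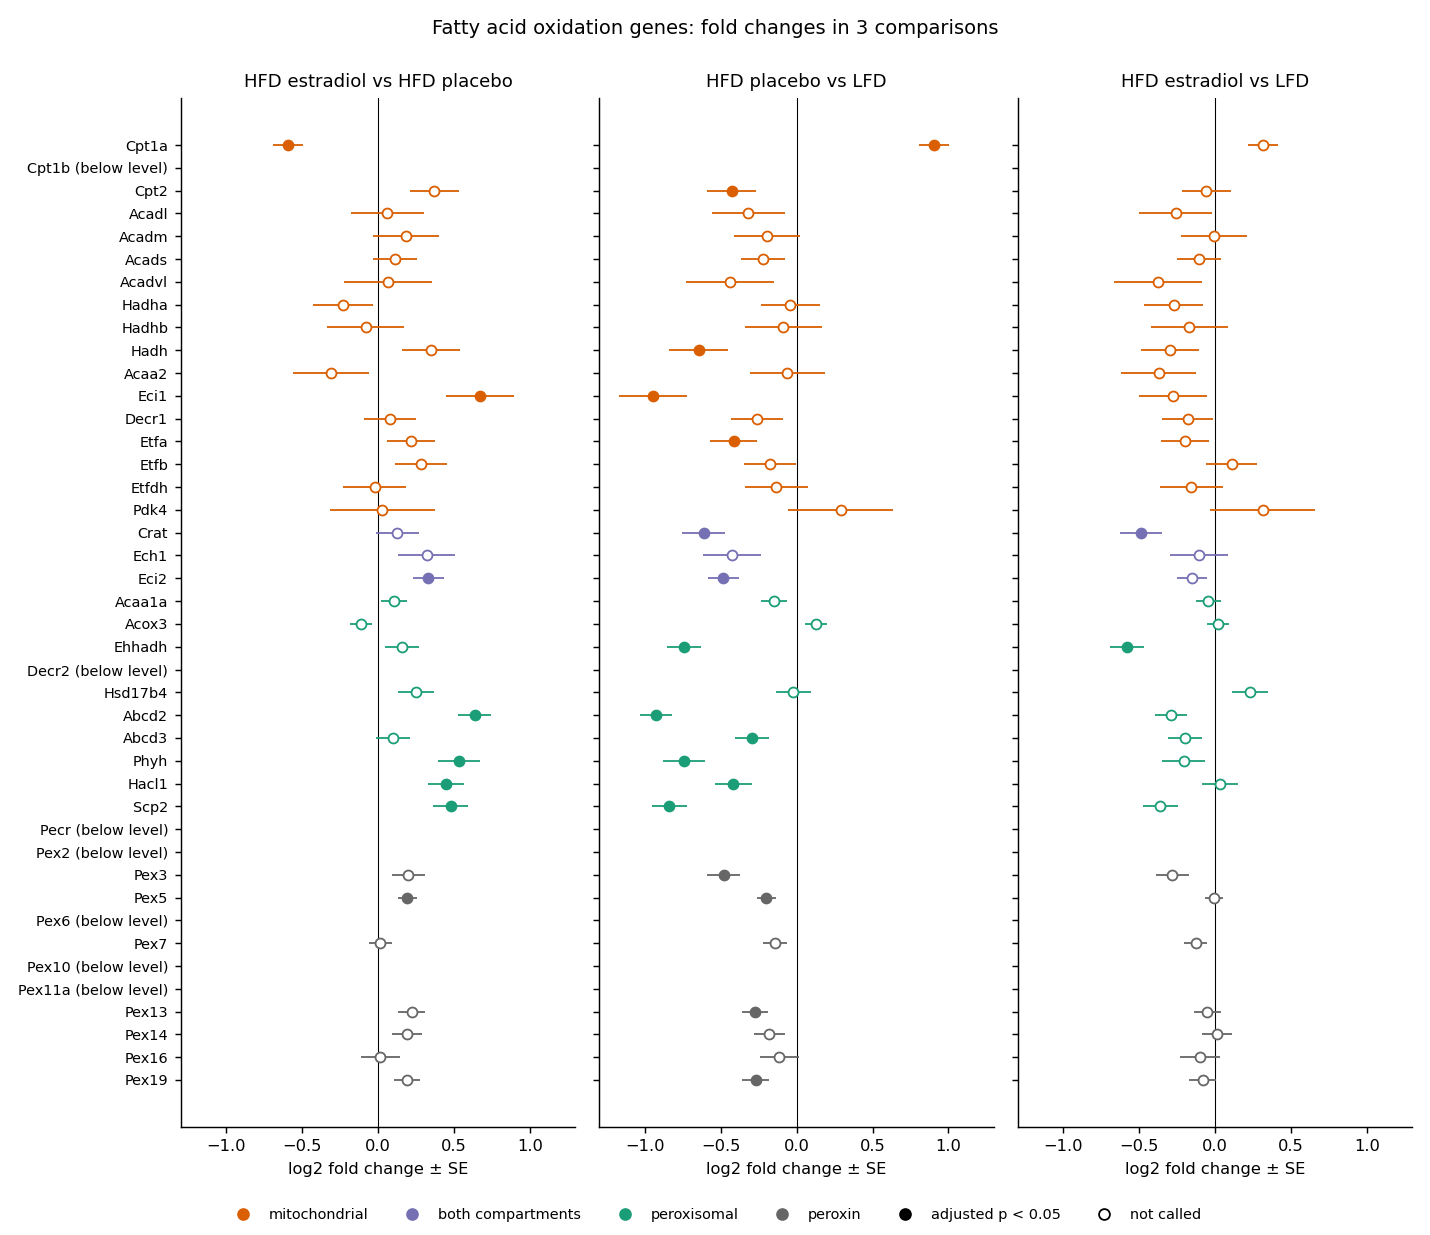
Log2 fold changes (points, with SE as bars) of the fatty acid oxidation genes for HFD estradiol vs HFD placebo, HFD placebo vs LFD and HFD estradiol vs LFD, on scaled FPKM. Filled points passed an adjusted p of 0.05 in limma; 16 genes lie left of 0 and filled in the middle panel, where with FPKM as deposited all 16 lie at or right of 0, and Cpt1a alone is filled on the other side in the first 2 panels.

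Calls were counted by compartment. Of 9 tested peroxisomal genes, 4 were called higher in HFD estradiol than in HFD placebo, 44.4% against 14.3% of all tested genes (median log2 fold change over the 9 of 0.25, which turned to -0.09 with FPKM as deposited). For HFD placebo vs LFD, 6 of the 9 were called lower, 66.7% against 22% (median -0.42, which turned to 0.33 with FPKM as deposited). Of 16 tested mitochondrial genes, 1 was called higher and 1 lower in HFD estradiol than in HFD placebo, 6.25% each against 14.3% and 16% (median 0.07, which turned to -0.27 with FPKM as deposited). For HFD placebo vs LFD, 1 was called higher and 4 lower, 6.25% and 25% against 21.3% and 22% (median -0.21, which turned to 0.82 with FPKM as deposited and 0.18 with a constant sum per library). Of 7 tested peroxins, 1 was called higher in HFD estradiol than in HFD placebo, 14.3% against 14.3% (median 0.19, which turned to -0.10 with FPKM as deposited). For HFD placebo vs LFD, 4 peroxins were called lower, 57.1% against 22% (median -0.20, which turned to 0.57 with FPKM as deposited and 0.10 with a constant sum). The mitochondrial shares lay below or near those of all tested genes, as did the peroxin share for HFD estradiol vs HFD placebo. No test was made between the compartments.

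The directions are thus relative to the median gene, which the scaling used here holds near 0. The median log2 fold change of all tested genes was 0.008 for HFD estradiol vs HFD placebo and -0.014 for HFD placebo vs LFD, whereas with FPKM as deposited it was -0.27 and 0.77. Set against the median of all genes, the peroxisomal median for HFD placebo vs LFD was -0.40 with the scaling used here, -0.44 with FPKM as deposited and -0.48 with a constant sum, and the peroxin median was -0.19 under all 3. The mitochondrial median set against all genes was -0.20 with the scaling used here, -0.10 with a constant sum and 0.05 with FPKM as deposited, so its direction differed with FPKM as deposited alone. For HFD estradiol vs HFD placebo, the peroxisomal median set against all genes was 0.24 with the scaling used here, 0.18 with FPKM as deposited and 0.23 with a constant sum. The peroxin median was then 0.184, 0.171 and 0.188 under the same scalings, and the mitochondrial median 0.064, 0.001 and 0.046. All 16 genes called lower in HFD placebo than in LFD had fold changes above 0 with FPKM as deposited, and Abcd3, Pex5, Pex13 and Pex19 also with a constant sum. Every "higher" and "lower" below is on scaled FPKM.

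Cpt1a, the outer-membrane carnitine palmitoyltransferase that controls entry of long-chain acyl groups into mitochondria, was the one gene called in the direction opposite to the others (chr19:3322334-3385733, plus strand, GRCm38, as all positions here). It had 3.37, 2.54, 2.70, 2.51 and 2.75 scaled FPKM in HFD estradiol mice, 4.88, 5.07, 4.52, 4.25 and 4.65 in HFD placebo mice and 2.24, 1.28, 2.40, 2.04 and 2.33 in LFD mice. Every HFD placebo mouse lay above every mouse of the other groups, and every HFD estradiol mouse lay above every LFD mouse. Cpt1a was lower in HFD estradiol than in HFD placebo (log2 fold change -0.59 ± 0.10 SE, adjusted p in limma = 3.2e-04) and higher in HFD placebo than in LFD (log2 fold change 0.90 ± 0.10 SE, adjusted p in limma = 3.9e-06). Between HFD estradiol and LFD it did not pass (log2 fold change 0.31 ± 0.10 SE, adjusted p in limma = 0.0683). The call against HFD placebo was lost with FPKM as deposited (-0.91, adjusted p in limma = 0.212), and the call against LFD held under all settings tried. The high values of HFD placebo mice coincided with the high macrophage marker sums given above, and the part of macrophages in them was not tested.

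The stretch upstream of the RefSeq start of Cpt1a is shown because the gene stands apart from the rest. The 150 bases lie at chr19:3323135-3323284 on the plus strand, outside annotated exons, with GC boxes (GGGCGG on either strand) in capitals.
Cpt1a: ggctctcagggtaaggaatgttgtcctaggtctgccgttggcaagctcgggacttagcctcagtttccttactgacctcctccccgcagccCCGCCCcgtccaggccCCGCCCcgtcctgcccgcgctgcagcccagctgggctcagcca
It held 2 GC boxes, and no match to the palindromic estrogen response element was found in the 250 bases upstream. Only 0.0666% of 27025 genes held such a match, so its absence does not set Cpt1a apart.

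Cpt1b, the muscle and brown fat form of the same enzyme, was low in most mice. It had 0.535, 0.166, 1.15, 0.190 and 0.199 scaled FPKM in HFD estradiol mice, 0.283, 0.300, 1.95, 4.05 and 0.371 in HFD placebo mice and 0.513, 4.03, 0.380 and 0.264 in LFD mice 1 to 4, with LFD 5 listed near 0. The high values were those of LFD 2, placebo 4, placebo 3 and estradiol 3, the mice with the most Ucp1. Its exons overlap those of Gm44502 on the same strand, so its level is uncertain.

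Cpt2, which turns acylcarnitine back into acyl-CoA inside the mitochondrion, ran from 4.13 to 5.22 scaled FPKM in HFD estradiol mice, from 2.66 to 5.67 in HFD placebo mice and from 3.49 to 6.94 in LFD mice. The groups overlapped. Cpt2 was lower in HFD placebo than in LFD (log2 fold change -0.43 ± 0.16 SE, adjusted p in limma = 0.0405), a call lost without placebo 1, 2, 3 or 5 or LFD 2, 4 or 5 (adjusted p in limma up to 0.11). Pdk4, the kinase that turns off pyruvate dehydrogenase when fatty acids are burned, spread widely within groups, with 1.04 to 6.62 scaled FPKM in HFD estradiol mice, 1.07 to 4.49 in HFD placebo mice and 1.00 to 3.81 in LFD mice, and passed in no comparison.

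Of the acyl-CoA dehydrogenases, which take the first step of each round, Acadm, Acadl, Acadvl and Acads passed in no comparison. Acadm, the medium-chain enzyme, had 10.8, 12.9, 16.5, 14.5 and 16.1 scaled FPKM in HFD estradiol mice, 8.47, 10.7, 13.8, 21.1 and 10.2 in HFD placebo mice and 12.5, 23.6, 11.4, 12.7 and 12.9 in LFD mice. Its 2 highest values were those of LFD 2 and placebo 4, and the groups overlapped. Acadl, Acadvl and Acads, the long-chain, very long-chain and short-chain enzymes, had log2 fold changes of 0.06, 0.06 and 0.11 for HFD estradiol vs HFD placebo and -0.32, -0.44 and -0.22 for HFD placebo vs LFD. Exons of Acadvl overlap those of Dvl2 on the opposite strand.

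Acadm is shown because it was the one gene of the 34 with a RefSeq promoter whose 250 upstream bases held AAGGTCA, the single site bound by receptors such as those of the ERR family. The 250 bases lie at chr3:153944644-153944893 on the minus strand, with the site in capitals, written here as its reverse complement.
Acadm: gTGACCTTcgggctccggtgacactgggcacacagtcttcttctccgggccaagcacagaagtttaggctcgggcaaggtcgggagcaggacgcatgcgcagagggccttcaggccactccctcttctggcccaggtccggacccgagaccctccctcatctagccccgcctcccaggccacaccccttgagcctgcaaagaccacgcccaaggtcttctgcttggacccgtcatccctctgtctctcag

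Hadha and Hadhb encode the alpha and beta subunits of the trifunctional protein, which carries out the last 3 steps on long chains. Hadha had 4.77, 4.68, 5.86, 5.53 and 5.10 scaled FPKM in HFD estradiol mice, 5.00, 5.53, 7.20, 8.92 and 5.27 in HFD placebo mice and 5.21, 12.5, 4.89, 5.81 and 5.86 in LFD mice. Hadhb had 4.42, 5.08, 6.22, 4.76 and 4.78 scaled FPKM in HFD estradiol mice, 3.84, 3.80, 6.66, 9.64 and 4.59 in HFD placebo mice and 4.81, 12.3, 3.69, 4.63 and 5.98 in LFD mice. In both genes LFD 2 stood at more than all other LFD mice and placebo 4 at more than all other HFD placebo mice, and neither gene passed in any comparison. Exons of Hadha overlap those of Garem2 on the opposite strand.

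The pair is read outward from a shared gap of 85 bases at chr5:30155163-30155247, between Hadha at chr5:30118304-30155162 on the minus strand and Hadhb at chr5:30155248-30184593 on the plus strand. It is shown, on the plus strand, because both genes had the same order of high mice; GC boxes are in capitals.
Hadha and Hadhb: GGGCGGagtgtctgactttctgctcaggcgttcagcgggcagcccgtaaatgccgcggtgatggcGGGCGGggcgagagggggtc

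Among the other mitochondrial genes, Eci1, Hadh and Etfa were called. Eci1, the mitochondrial enoyl-CoA isomerase that moves double bonds of unsaturated chains (chr17:24426641-24439348, plus strand), had 5.20, 5.16, 6.93, 7.78 and 5.27 scaled FPKM in HFD estradiol mice, 1.72, 2.89, 4.09, 6.21 and 3.21 in HFD placebo mice and 6.80, 11.7, 5.14, 7.63 and 7.20 in LFD mice. The 3 lowest values were those of placebo 1, 2 and 5, and of the HFD placebo mice placebo 4 alone overlapped the other groups. It was higher in HFD estradiol than in HFD placebo (log2 fold change 0.67 ± 0.22 SE, adjusted p in limma = 0.0330) and lower in HFD placebo than in LFD (log2 fold change -0.94 ± 0.22 SE, adjusted p in limma = 0.00300). The first call was lost without estradiol 3 or 4 or placebo 1, 2 or 5 (adjusted p in limma up to 0.0905).
The 150 bases just before the annotated gene, at chr17:24426491-24426640 on the plus strand, are shown for this call, with 1 GC box in capitals.
Eci1: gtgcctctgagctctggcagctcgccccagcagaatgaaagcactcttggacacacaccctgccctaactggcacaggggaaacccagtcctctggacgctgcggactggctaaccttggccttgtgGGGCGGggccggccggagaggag

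Hadh, the dehydrogenase for medium and short chains, had 10.9, 11.6, 14.8, 13.8 and 13.1 scaled FPKM in HFD estradiol mice, 7.17, 8.40, 10.8, 15.9 and 8.53 in HFD placebo mice and 13.8, 24.7, 12.0, 15.8 and 15.6 in LFD mice. The HFD placebo mice apart from placebo 4 lay below every other mouse. Hadh was lower in HFD placebo than in LFD (log2 fold change -0.65 ± 0.19 SE, adjusted p in limma = 0.0129) and did not pass for HFD estradiol vs HFD placebo (log2 fold change 0.35 ± 0.19 SE, adjusted p in limma = 0.187). Etfa, the alpha subunit of the electron transfer flavoprotein, was also lower in HFD placebo than in LFD (log2 fold change -0.41 ± 0.16 SE, adjusted p in limma = 0.0430), a call lost without placebo 1, 2, 3 or 5 or LFD 1, 2, 4 or 5 (adjusted p in limma up to 0.117). Etfb, its beta subunit, Etfdh, which passes the electrons to ubiquinone, Decr1, which reduces double bonds, and Acaa2, the thiolase for medium chains, passed in no comparison. Etfdh had 3.93 to 5.24 scaled FPKM in HFD estradiol mice, 3.69 to 7.43 in HFD placebo mice and 3.88 to 10.9 in LFD mice. Exons of Etfb and Etfdh overlap those of other genes.

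Of the genes known from both compartments, Eci2, the isomerase with a peroxisomal targeting signal, had 4.32, 4.42, 4.36, 4.43 and 4.05 scaled FPKM in HFD estradiol mice, 3.02, 2.43, 3.87, 3.97 and 3.04 in HFD placebo mice and 4.08, 5.61, 4.46, 4.90 and 5.62 in LFD mice. HFD placebo mice lay below every mouse of the other groups. Eci2 was higher in HFD estradiol than in HFD placebo (log2 fold change 0.33 ± 0.10 SE, adjusted p in limma = 0.0208) and lower in HFD placebo than in LFD (log2 fold change -0.48 ± 0.10 SE, adjusted p in limma = 0.00119), and the first of these calls was lost without placebo 2 or placebo 5, with adjusted p in limma up to 0.0607. Crat, the carnitine acetyltransferase, had 4.32, 5.01, 5.86, 6.00 and 6.08 scaled FPKM in HFD estradiol mice, 4.49, 4.86, 4.66, 6.54 and 4.14 in HFD placebo mice and 6.89, 11.5, 6.27, 8.15 and 7.97 in LFD mice. Every LFD mouse apart from LFD 3 lay above every mouse on the high-fat diet. Crat was lower than in LFD both in HFD placebo (log2 fold change -0.61 ± 0.14 SE, adjusted p in limma = 0.00223) and in HFD estradiol (log2 fold change -0.49 ± 0.14 SE, adjusted p in limma = 0.0440), and the second call was lost without any single estradiol mouse or LFD 2, 4 or 5 (adjusted p in limma up to 0.109). Ech1, a dienoyl-CoA isomerase and the highest of the 42 genes per length in each group, passed in no comparison. Exons of Crat overlap those of Dolpp1 on the opposite strand.

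Among peroxisomal genes, Abcd2, Phyh, Hacl1 and Scp2 were called both for HFD estradiol vs HFD placebo and for HFD placebo vs LFD, comparisons that share the HFD placebo mice. Abcd2, a peroxisomal transporter of very long-chain acyl-CoA (chr15:91145871-91191799, minus strand), had 9.49, 11.3, 10.97, 10.6 and 13.4 scaled FPKM in HFD estradiol mice, 5.71, 6.91, 5.91, 8.77 and 6.94 in HFD placebo mice and 13.6, 12.4, 13.9, 14.5 and 14.6 in LFD mice. HFD placebo mice lay below every mouse of the other groups, while HFD estradiol and LFD mice overlapped. Abcd2 was higher in HFD estradiol than in HFD placebo (log2 fold change 0.64 ± 0.11 SE, adjusted p in limma = 3.3e-04) and lower in HFD placebo than in LFD (log2 fold change -0.93 ± 0.11 SE, adjusted p in limma = 6.4e-06), the smallest adjusted p of the genes called lower there. Abcd3, the transporter for long and branched chains, was at most 3.71 scaled FPKM in any mouse. It was lower in HFD placebo than in LFD (log2 fold change -0.29 ± 0.11 SE, adjusted p in limma = 0.0459), a call lost without placebo 1, 2, 3 or 5 or LFD 2, 3 or 5 (adjusted p in limma up to 0.119).

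Phyh, the phytanoyl-CoA hydroxylase that begins alpha-oxidation of branched chains (chr2:4919019-4938730, plus strand), had 8.93, 10.5, 10.4, 10.9 and 10.2 scaled FPKM in HFD estradiol mice, 5.83, 5.43, 7.00, 9.45 and 6.39 in HFD placebo mice and 11.1, 16.3, 9.21, 12.1 and 11.7 in LFD mice. Of the HFD placebo mice, placebo 4 alone overlapped the other groups. Phyh was higher in HFD estradiol than in HFD placebo (log2 fold change 0.53 ± 0.14 SE, adjusted p in limma = 0.00823) and lower in HFD placebo than in LFD (log2 fold change -0.74 ± 0.14 SE, adjusted p in limma = 4.9e-04). Hacl1, the lyase that follows it in the pathway, had 0.765, 0.998, 1.59, 1.41 and 1.29 scaled FPKM in HFD estradiol mice, 0.295, 0.583, 0.756, 0.888 and 0.569 in HFD placebo mice and 0.958, 1.65, 0.976, 1.13 and 1.06 in LFD mice. Estradiol 1 alone of the HFD estradiol mice lay within the HFD placebo range. All HFD placebo values were below 1, so Hacl1 met the level for testing through the other groups. Hacl1 was higher in HFD estradiol than in HFD placebo (log2 fold change 0.45 ± 0.12 SE, adjusted p in limma = 0.00924) and lower in HFD placebo than in LFD (log2 fold change -0.42 ± 0.12 SE, adjusted p in limma = 0.0102). Exons of Hacl1 overlap those of Btd and Gm49387, so its level is uncertain.

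Scp2 encodes sterol carrier protein 2 and, from another start, a peroxisomal thiolase for branched chains, and the files do not separate them. It had 11.6, 12.8, 14.0, 16.1 and 14.7 scaled FPKM in HFD estradiol mice, 7.66, 9.06, 8.96, 12.5 and 10.3 in HFD placebo mice and 17.2, 19.5, 16.2, 18.4 and 18.6 in LFD mice. Every LFD mouse lay above every mouse on the high-fat diet. Scp2 was higher in HFD estradiol than in HFD placebo (log2 fold change 0.48 ± 0.12 SE, adjusted p in limma = 0.00481) and lower in HFD placebo than in LFD (log2 fold change -0.84 ± 0.12 SE, adjusted p in limma = 3.0e-05), and HFD estradiol vs LFD did not pass (log2 fold change -0.36 ± 0.12 SE, adjusted p in limma = 0.0699).

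Ehhadh, the peroxisomal bifunctional enzyme and a known target of PPAR alpha in mouse liver, had 0.906, 0.869, 0.889, 1.00 and 1.32 scaled FPKM in HFD estradiol mice, 0.491, 0.701, 1.02, 1.15 and 0.649 in HFD placebo mice and 1.64, 2.85, 1.80, 1.83 and 1.92 in LFD mice. Every LFD mouse lay above every mouse on the high-fat diet. It was lower than in LFD in HFD placebo (log2 fold change -0.74 ± 0.11 SE, adjusted p in limma = 7.7e-05) and in HFD estradiol (log2 fold change -0.58 ± 0.11 SE, adjusted p in limma = 0.00477), and HFD estradiol vs HFD placebo did not pass (log2 fold change 0.16 ± 0.11 SE, adjusted p in limma = 0.319). With lane as a term the difference between HFD estradiol and LFD was -0.71 ± 0.20 (SE) and no longer passed (adjusted p in limma = 0.0656). Hsd17b4, the other bifunctional enzyme, which handles straight and branched chains, had 8.77, 10.3, 11.8, 12.5 and 11.6 scaled FPKM in HFD estradiol mice, 7.35, 8.62, 9.29, 11.3 and 8.96 in HFD placebo mice and 7.78, 9.70, 8.35, 9.56 and 10.7 in LFD mice. The groups overlapped, and it passed in no comparison (log2 fold change 0.25 ± 0.12 SE, adjusted p in limma = 0.117 for HFD estradiol vs HFD placebo).

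Upstream stretches of Phyh and Ehhadh are shown as genes lower in HFD placebo than in LFD of which only Phyh also passed between the high-fat groups; that difference between the genes was not tested. They lie at chr2:4918846-4918995 on the plus strand and chr16:21787835-21787984 on the minus strand, 150 bases each outside annotated exons, with GC boxes in capitals.
Phyh: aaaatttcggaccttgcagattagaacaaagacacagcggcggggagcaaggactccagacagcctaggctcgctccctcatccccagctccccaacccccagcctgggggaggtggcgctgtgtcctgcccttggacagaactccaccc
Ehhadh: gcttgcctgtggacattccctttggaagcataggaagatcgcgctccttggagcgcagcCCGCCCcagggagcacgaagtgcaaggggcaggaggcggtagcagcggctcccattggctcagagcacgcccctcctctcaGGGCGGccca
The printed stretch of Phyh held no GC box and that of Ehhadh held 2.

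The remaining peroxisomal enzymes passed in no comparison. Acox3, an oxidase for branched chains, had means of 1.19 ± 0.145 scaled FPKM in HFD estradiol mice, 1.36 ± 0.163 in HFD placebo mice and 1.16 ± 0.213 in LFD mice (SD, n = 5 each). Acaa1a, a thiolase, had means of 2.33 ± 0.242, 2.11 ± 0.386 and 2.43 ± 0.210 scaled FPKM in HFD estradiol, HFD placebo and LFD mice. It is uncertain, because it shares sequence with the near copy Acaa1b and its exons overlap those of Myd88 on the opposite strand. Decr2 and Pecr, reductases that were below the tested level, had adjusted p of 0.443 or more and 0.232 or more in a limma fit without the filter on low values.

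**Figure D2:**
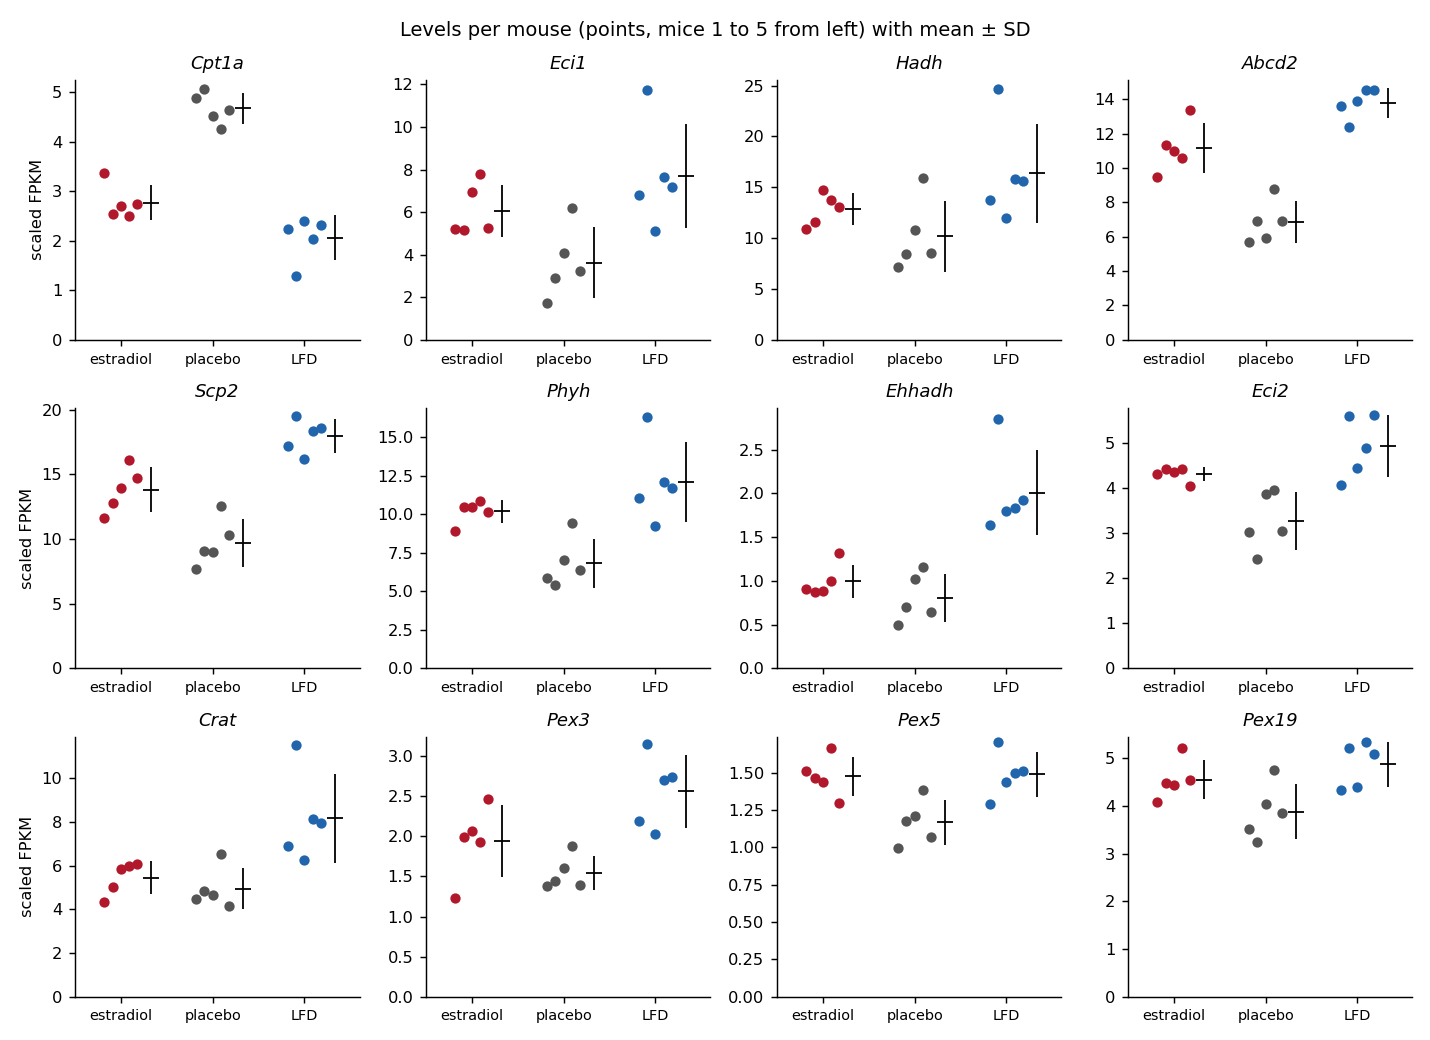
Scaled FPKM of 12 genes in each mouse (points, mice 1 to 5 from left within a group) for HFD estradiol, HFD placebo and LFD, with the mean ± SD beside them as a dash and bar. Cpt1a is the only panel in which HFD placebo mice lie above the rest; in Abcd2 and Eci2 all HFD placebo mice lie below the rest.

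The tested peroxins had log2 fold changes between -0.48 and -0.11 for HFD placebo vs LFD. Pex3, which recruits Pex19 at the membrane, had 1.23, 1.99, 2.07, 1.93 and 2.47 scaled FPKM in HFD estradiol mice, 1.38, 1.45, 1.61, 1.88 and 1.39 in HFD placebo mice and 2.19, 3.14, 2.02, 2.70 and 2.73 in LFD mice. HFD placebo and LFD mice did not overlap, and Pex3 was lower in HFD placebo (log2 fold change -0.48 ± 0.11 SE, adjusted p in limma = 0.00219). Pex19, which carries membrane proteins to the peroxisome, was lower in HFD placebo than in LFD (log2 fold change -0.27 ± 0.09 SE, adjusted p in limma = 0.0190), as was Pex13 (log2 fold change -0.27 ± 0.09 SE, adjusted p in limma = 0.0198), part of the docking complex for imported enzymes. The call of Pex19 was lost without placebo 1 or placebo 2 (adjusted p in limma up to 0.0603) and that of Pex13 without placebo 2, placebo 3 or LFD 2 (up to 0.0604).

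Pex5, the receptor for enzymes with the common C-terminal targeting signal, had 1.51, 1.46, 1.44, 1.66 and 1.297 scaled FPKM in HFD estradiol mice, 0.996, 1.18, 1.21, 1.39 and 1.07 in HFD placebo mice and 1.29, 1.71, 1.44, 1.496 and 1.51 in LFD mice. HFD placebo mice were the lowest, with overlap through placebo 4 alone. Pex5 was higher in HFD estradiol than in HFD placebo (log2 fold change 0.19 ± 0.06 SE, adjusted p in limma = 0.0251) and lower in HFD placebo than in LFD (log2 fold change -0.20 ± 0.06 SE, adjusted p in limma = 0.0148). The first call was lost without estradiol 4, placebo 1 or placebo 5 (adjusted p in limma up to 0.0711). Pex7, the receptor for the rarer N-terminal signal carried by Phyh and Acaa1a, ran from 0.769 to 1.13 scaled FPKM in HFD estradiol mice, 0.836 to 1.00 in HFD placebo mice and 0.757 to 1.42 in LFD mice and passed in no comparison. Pex14, the docking partner of Pex5, and Pex16, which acts with Pex3, passed in none either.

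Pex11a, which promotes peroxisome division and is induced by PPAR alpha agonists in rodents, was below the tested level. It had 0.451, 0.832, 1.11, 0.724 and 0.816 scaled FPKM in HFD estradiol mice, 0.287, 0.0703, 0.282, 0.760 and 0.566 in HFD placebo mice and 0.503, 1.71, 1.08, 0.617 and 1.63 in LFD mice. In the limma fit without the filter on low values, where 9.67% of 18880 genes were called lower in HFD placebo than in LFD, Pex11a had a log2 fold change of -0.58 ± 0.17 (SE, adjusted p = 0.0276). Pex6, a motor of the receptor export complex, had -0.32 ± 0.09 there (SE, adjusted p = 0.0165). Pex2 and Pex10, of the ubiquitin ligase complex, did not pass in that fit. Exons of Pex3, Pex13 and Pex16 overlap those of genes on the opposite strand.

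**Figure D3:**
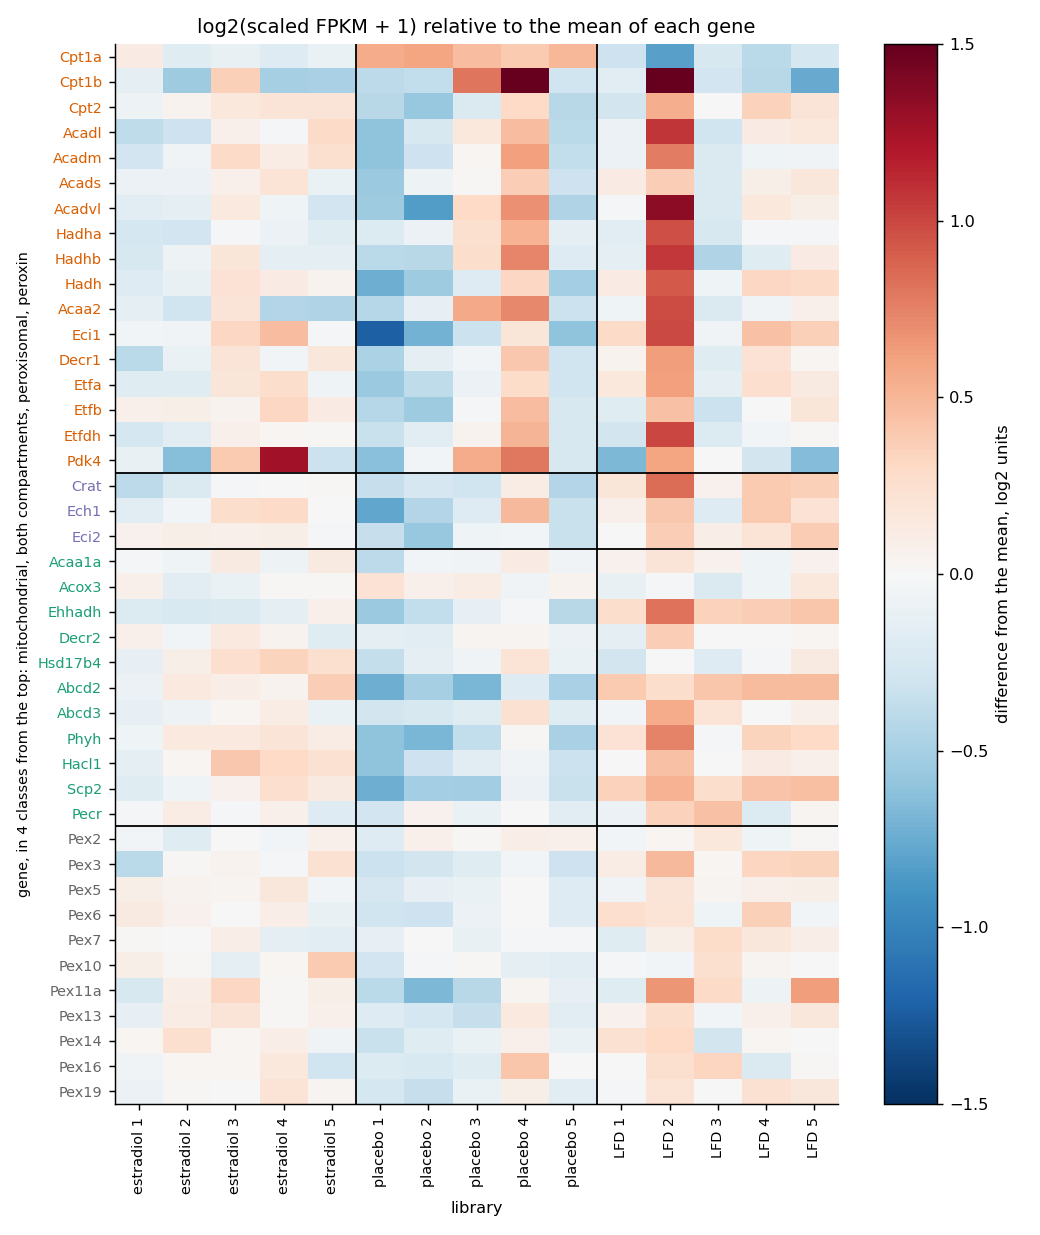
Difference of log2(scaled FPKM + 1) from the mean of each gene over the 15 libraries (columns, HFD estradiol, HFD placebo and LFD), for the 42 genes by class; differences beyond 1.5 take the end colours. Most mitochondrial rows are highest in LFD 2 and next in placebo 4, and most peroxisomal rows are below their mean in placebo 1, 2, 3 and 5.

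The mitochondrial genes spread most within groups. The mean of the 17 mitochondrial genes on the log2 scale ran from 2.46 to 2.81 in HFD estradiol mice, from 2.17 to 3.19 in HFD placebo mice and from 2.45 to 3.41 in LFD mice. Placebo 4 and LFD 2 gave the highest values, 3.19 and 3.41. The mean of the 11 peroxisomal genes ran from 1.94 to 2.13 in HFD estradiol mice, from 1.62 to 2.04 in HFD placebo mice and from 2.08 to 2.40 in LFD mice, and that of the 11 peroxins from 1.26 to 1.37 in HFD estradiol mice, from 1.05 to 1.37 in HFD placebo mice and from 1.33 to 1.55 in LFD mice. HFD placebo and LFD mice did not overlap in the peroxisomal mean and did overlap in the mitochondrial mean.

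Within groups the mitochondrial genes followed the brown fat markers. The mean log2 level of the 8 markers was added to the fit after seeing the data, and 15 of the 35 genes rose with it in limma, where 1.69% of all tested genes did. They were 12 of 16 mitochondrial genes, 3 of 9 peroxisomal genes (Phyh, Ehhadh and Abcd3), none of the 3 shared genes and none of the 7 peroxins. Acadvl had the steepest slope of these, 0.72 ± 0.07 log2 units per unit of marker level (SE, adjusted p in limma = 2.2e-05), followed by Acaa2 with 0.63 ± 0.05 (adjusted p in limma = 1.1e-06) and Hadhb with 0.62 ± 0.07 (adjusted p in limma = 1.8e-04). Cpt1a had a slope of -0.15 ± 0.06 (adjusted p in limma = 0.164), and Abcd2 of 0.01 ± 0.07 (adjusted p in limma = 0.962). Without LFD 2 and placebo 4, the 2 mice farthest from the median marker level, Acaa2 alone passed (0.69 ± 0.08, adjusted p in limma = 0.00223), where 0.107% of all tested genes were called higher. The mitochondrial median slope was then 0.28, against 0.46 with all mice, and Acadvl had a slope of 0.59 ± 0.12 (adjusted p in limma = 0.163). Leaving these 2 mice out also narrows the range of marker level. The lost calls therefore do not show how far the slopes rest on them.

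**Figure D4:**
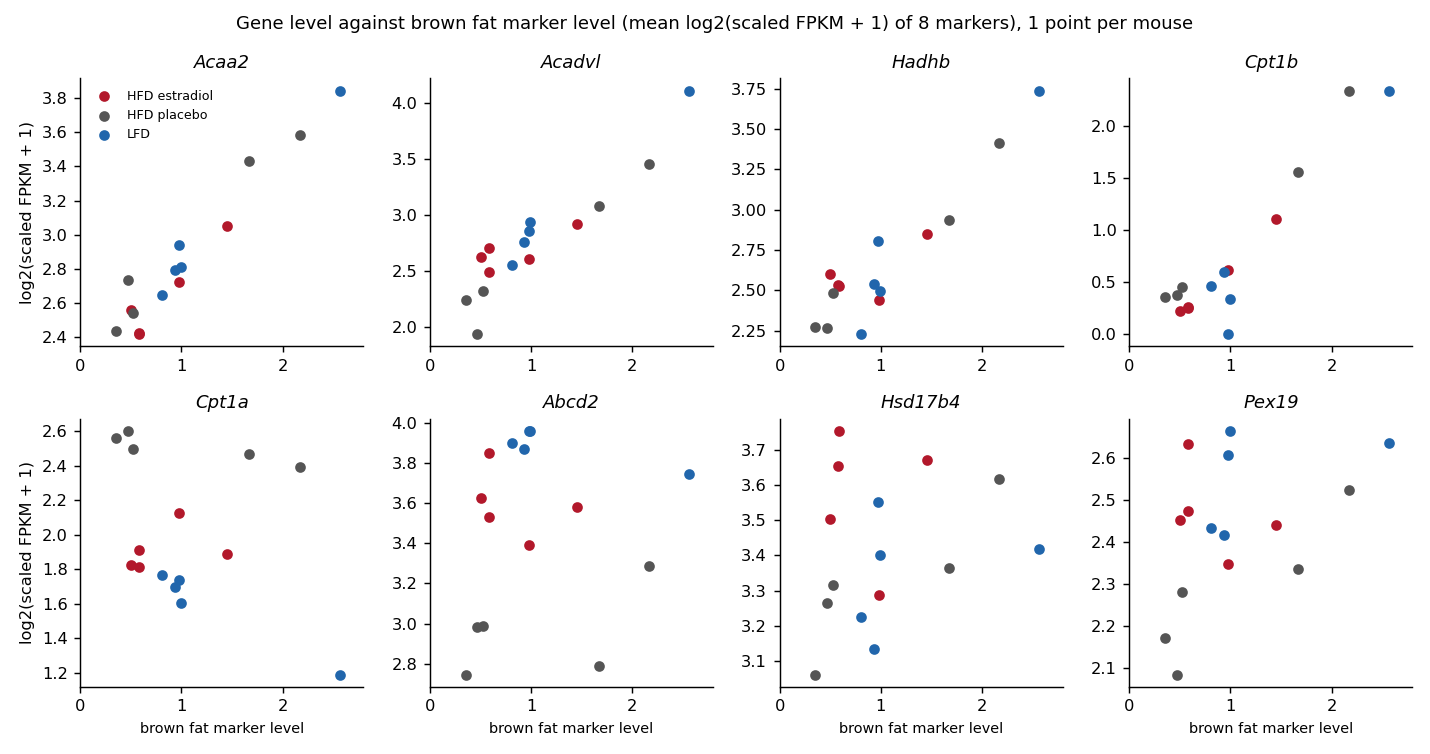
Level of 8 genes, log2(scaled FPKM + 1), against brown fat marker level in each mouse, with HFD estradiol, HFD placebo and LFD in separate colours. Acaa2, Acadvl, Hadhb and Cpt1b are highest in LFD 2 or placebo 4, the mice farthest right, while in Cpt1a and Abcd2 the HFD placebo mice lie apart from the rest at every marker level.

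**Figure D5:**
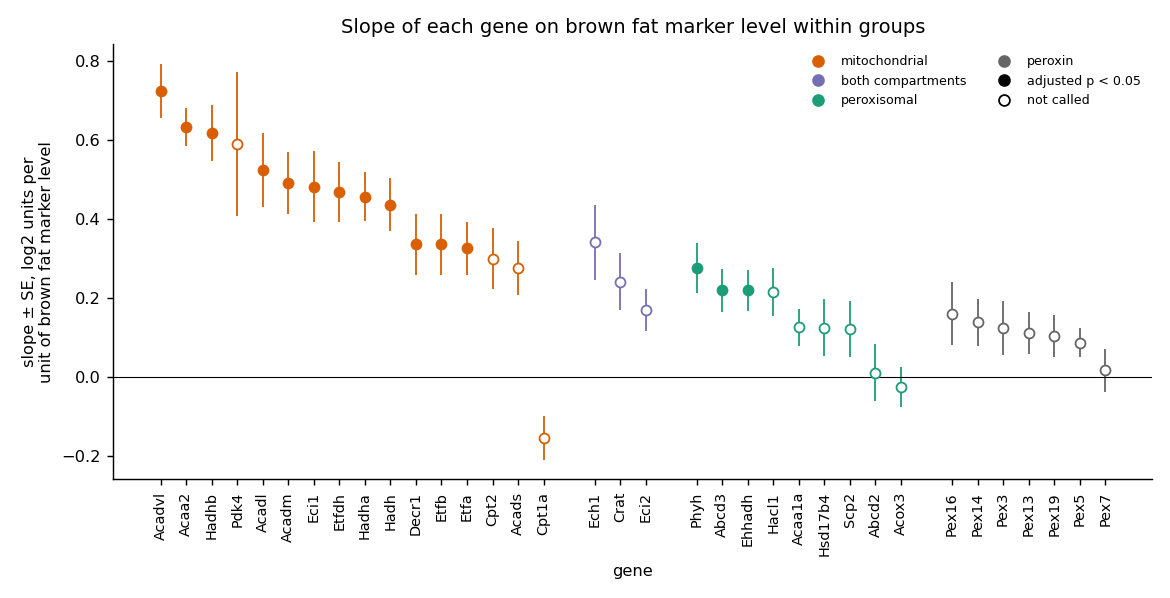
Slope of each tested gene on brown fat marker level within groups (points, with SE as bars), by class. Filled points passed an adjusted p of 0.05 in limma, 12 of them mitochondrial and 3 peroxisomal; without LFD 2 and placebo 4 only Acaa2 passed.

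The comparisons were repeated without the 3 mice with the highest marker level, placebo 3, placebo 4 and LFD 2. No HFD estradiol mouse was left out. Placebo 3 and placebo 4 had the highest mitochondrial means of the HFD placebo mice, 2.79 and 3.19, with the others at 2.17 to 2.36. Their removal by itself raises HFD estradiol vs HFD placebo in the mitochondrial genes. How far the counts go beyond this choice of mice was not tested. Between HFD estradiol and HFD placebo, 18 of the 35 genes were then higher, where 14.1% of all tested genes were, and 1 lower, where 16.6% were. The higher ones were 7 mitochondrial genes (Cpt2, Acadm, Acadvl, Hadh, Eci1, Etfa and Etfb), 2 of the shared genes (Ech1 and Eci2), 6 peroxisomal genes (Ehhadh, Hsd17b4, Abcd2, Phyh, Hacl1 and Scp2) and 3 peroxins (Pex5, Pex13 and Pex19). Acadm had a log2 fold change of 0.48 ± 0.13 there (SE, adjusted p in limma = 0.00991) and Hadh of 0.60 ± 0.12 (adjusted p in limma = 0.00141). Between HFD placebo and LFD, 1 gene was higher, with 20.1% in the background, and 19 were lower, with 18.5% in the background. They then included Acadvl, Acads and Ech1 as well. Ehhadh and Crat stayed lower in HFD estradiol than in LFD, where 3.58% of all tested genes were called lower, and none of the 35 genes was higher, with 3.54% in the background. With all 15 mice and marker level as a term, 13 genes were higher and 1 lower in HFD estradiol than in HFD placebo (background 16.2% and 17.1%) and 1 was higher and 17 lower in HFD placebo than in LFD (background 21.2% and 22.1%). Between HFD estradiol and LFD, none was then higher and Ehhadh alone was lower (background 3.05% and 3.01%).

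Sequencing lane was largely shared with the groups. Within lane 6 there were 5 HFD estradiol and 2 HFD placebo mice, of which placebo 4 had high brown fat markers. None of the 35 genes was called higher there, and of them only Cpt1a was called, at -0.58 (adjusted p in limma = 0.0139). The shares of all tested genes called in each direction within lane 6 are not given here. Abcd2 had a log2 fold change of 0.47 there (adjusted p in limma = 0.0915), against 0.64 over all mice. The other 6 genes called higher over all mice had log2 fold changes of 0.18 (Pex5) to 0.41 (Hacl1) within lane 6, with adjusted p in limma from 0.162 (Eci2) to 0.373 (Eci1). With lane as a term, Abcd2 was the 1 gene called higher (0.46 ± 0.13, SE, adjusted p in limma = 0.0274), where 5.65% of all tested genes were, and Cpt1a the 1 called lower, where 7.02% were. With lane and marker level together Abcd2, Eci1, Hacl1 and Phyh were higher (background 5.79%) and Cpt1a lower (background 7.53%). With lane as a term, 1 gene was higher and 17 lower in HFD placebo than in LFD (background 21.2% and 20.7%), and with lane and marker level 1 was higher and 18 lower (background 20.1% and 19.8%). Within lane 5 (3 HFD placebo and 5 LFD mice) all 17 calls between HFD placebo and LFD among the 35 genes held. The share of all tested genes called within lane 5 is not given here. Log2 fold changes were -1.01 for Abcd2 (adjusted p in limma = 3.21e-05), -0.96 for Scp2 (5.9e-05), -0.67 for Ehhadh (0.00167) and 0.85 for Cpt1a (0.000316). HFD estradiol and LFD mice shared no lane, so no value within a lane could be had. With lane as a term, estimated through the HFD placebo mice, 1 of the 35 genes was called lower, Scp2, where 1.23% of all tested genes were, and none higher, where 1.66% were. With lane and marker level none was called in either direction (background 0.321% higher and 0.303% lower).

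Other genes of these pathways were counted on scaled FPKM against the shares of all tested genes given above. With FPKM as deposited, Cat, Acad11, Nrip1, Pparg, Pdk2, Lpin1, Pdha1 and Pdhx turned to above 0 for HFD placebo vs LFD. Of 13 tested genes of mitochondrial oxidation, 6 were higher in HFD estradiol than in HFD placebo (46.2% against 14.3% of all tested genes). For HFD placebo vs LFD, 9 were lower (69.2% against 22%). Acacb, the carboxylase whose product blocks Cpt1, was lower than in LFD both in HFD estradiol (log2 fold change -1.51 ± 0.18 SE, adjusted p in limma = 1.4e-04) and in HFD placebo (log2 fold change -1.54 ± 0.18 SE, adjusted p in limma = 7.8e-06). Acad11, an acyl-CoA dehydrogenase (log2 fold change 0.81 ± 0.16 SE, adjusted p in limma = 0.00131), and Pccb, a subunit of propionyl-CoA carboxylase (log2 fold change 0.69 ± 0.15 SE, adjusted p in limma = 0.00282), were higher in HFD estradiol than in HFD placebo, and Pccb was lower in HFD placebo than in LFD (log2 fold change -1.02 ± 0.15 SE, adjusted p in limma = 7.8e-05). Within lane 6, Acad11 had a log2 fold change of 0.69 (adjusted p in limma = 0.0772) and Pccb of 0.44 (adjusted p in limma = 0.178), so neither passed there. Slc25a20, the carnitine-acylcarnitine carrier, passed in no comparison.

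Of 16 tested further peroxisomal genes, 7 were higher in HFD estradiol than in HFD placebo (43.8% against 14.3% of all tested genes). For HFD placebo vs LFD, 9 were lower (56.2% against 22%). Cat, the catalase that breaks down hydrogen peroxide made by peroxisomal oxidases, had 37.0, 51.9, 59.4, 58.1 and 63.1 scaled FPKM in HFD estradiol mice, 21.1, 27.9, 25.7, 35.9 and 24.1 in HFD placebo mice and 36.7, 46.3, 38.4, 47.5 and 44.6 in LFD mice. HFD placebo mice lay below every mouse of the other groups, and Cat was higher in HFD estradiol than in HFD placebo (log2 fold change 0.97 ± 0.16 SE, adjusted p in limma = 2.2e-04) and lower in HFD placebo than in LFD (log2 fold change -0.66 ± 0.16 SE, adjusted p in limma = 0.00279). Within lane 6 the first of these was 0.83 and did not pass (adjusted p in limma = 0.0632). Pxmp2, a channel of the peroxisomal membrane, was also higher in HFD estradiol than in HFD placebo (log2 fold change 0.87 ± 0.13 SE, adjusted p in limma = 9.3e-05) and lower in HFD placebo than in LFD (log2 fold change -1.29 ± 0.13 SE, adjusted p in limma = 1.7e-06). Its first call passed within lane 6 (0.62, adjusted p in limma = 0.00927). The highest HFD placebo value of Pxmp2 was 0.998 scaled FPKM, so it too met the level for testing through the other groups. Gstk1, a peroxisomal glutathione transferase, was lower in HFD placebo than in LFD (log2 fold change -0.96 ± 0.14 SE, adjusted p in limma = 6.3e-05). It was higher in HFD estradiol than in HFD placebo (log2 fold change 0.71, adjusted p in limma = 0.00134), also within lane 6 (0.59, adjusted p in limma = 0.0407).

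Of 10 tested regulators of oxidation, 6 were higher in HFD estradiol than in HFD placebo (60% against 14.3% of all tested genes). For HFD placebo vs LFD, 8 were lower (80% against 22%). Nrip1, a corepressor of nuclear receptors and a known estrogen target (log2 fold change 0.91 ± 0.14 SE, adjusted p in limma = 1.7e-04), and Pparg, the main regulator of adipocyte differentiation (log2 fold change 0.55 ± 0.17 SE, adjusted p in limma = 0.0225), were higher in HFD estradiol. The call of Pparg was lost without estradiol 3 or 5 or placebo 2 or 3 (adjusted p in limma up to 0.0619), and within lane 6 (0.35, adjusted p in limma = 0.338). That of Nrip1 passed within lane 6 (0.93, adjusted p in limma = 0.0219). Lpin1, a phosphatidate phosphatase and coactivator, was lower than in LFD in HFD estradiol (log2 fold change -0.60 ± 0.13 SE, adjusted p in limma = 0.0124) and in HFD placebo (log2 fold change -0.79 ± 0.13 SE, adjusted p in limma = 2.0e-04). Ppara was at 0.614 scaled FPKM or less and Ppargc1a at 0.35 or less in every mouse, below the tested level. Of 4 tested PPAR alpha targets outside oxidation, 1 was higher and 1 lower in HFD estradiol than in HFD placebo (25% each, against 14.3% and 16%). For HFD placebo vs LFD, 2 were higher (50% against 21.3%). Plin2, a lipid droplet coat protein, was lower in HFD estradiol than in HFD placebo (log2 fold change -1.63 ± 0.14 SE, adjusted p in limma = 2.1e-06) and higher in HFD placebo than in LFD (log2 fold change 1.59 ± 0.14 SE, adjusted p in limma = 9.9e-07). The first of these passed within lane 6 (-1.57, adjusted p in limma = 0.00146). Angptl4, a secreted inhibitor of lipoprotein lipase, was higher in HFD placebo than in LFD (log2 fold change 0.93 ± 0.25 SE, adjusted p in limma = 0.00746), and within lane 5 it did not pass (0.81, adjusted p in limma = 0.0722).

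Of 6 tested genes of pyruvate dehydrogenase and its kinases, 2 were higher in HFD estradiol than in HFD placebo (33.3% against 14.3%). They were led by the kinase Pdk2 (log2 fold change 0.76 ± 0.14 SE, adjusted p in limma = 8.3e-04). Within lane 6 Pdk2 passed (0.74, adjusted p in limma = 0.0425) and the other, the subunit Pdhb, did not (0.31, adjusted p in limma = 0.327). For HFD placebo vs LFD, 5 were lower (83.3% against 22%), led by Pdhb (log2 fold change -1.06 ± 0.18 SE, adjusted p in limma = 1.6e-04). Pdha1, the catalytic subunit, was lower in HFD placebo than in LFD (log2 fold change -0.84 ± 0.19 SE, adjusted p in limma = 0.00221). Pdhx, the component that holds the complex together, was lower in HFD estradiol than in LFD (log2 fold change -0.41 ± 0.12 SE, adjusted p in limma = 0.0387), a call lost without any single estradiol mouse or LFD 2 or 4 (adjusted p in limma up to 0.0837) and with lane as a term (0.131). Of 17 tricarboxylic acid cycle genes, 1 was higher in HFD estradiol than in HFD placebo, 5.88% and so below the 14.3% of all tested genes. For HFD placebo vs LFD, 11 were lower (64.7% against 22%). Of 70 oxidative phosphorylation genes, 7 were higher in HFD estradiol than in HFD placebo, 10% and so also below 14.3%. For HFD placebo vs LFD, 22 were lower (31.4% against 22%). Of 12 adipocyte markers, 8 were higher (66.7% against 14.3%) and 1 lower (8.33% against 16%) in HFD estradiol than in HFD placebo. For HFD placebo vs LFD, 10 were lower (83.3% against 22%) and 1 higher (8.33% against 21.3%). Of 11 macrophage markers, 10 were lower in HFD estradiol than in HFD placebo (90.9% against 16%). For HFD placebo vs LFD, 11 were higher (100% against 21.3%). Adipocyte and macrophage markers thus moved with the groups beside the oxidation genes, and their part in the calls was not tested.

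Promoters of 34 of the 42 genes were found in the RefSeq table for GRCm38.p6, from which all printed upstream sequences come. In the 250 bases upstream, on both strands, GGGCGG was present in 23 of the 34, or 67.6%, and in 35.4% of 27025 genes. CCAAT was present in 14 of the 34, or 41.2%, and in 37.5% of all genes. The direct repeat bound by PPARs, the ERR element TCAAGGTCA, which contains AAGGTCA, and the estrogen response element were in none of the 34, and in 0.4%, 0.422% and 0.0666% of all genes. AAGGTCA was in Acadm, with 4.7% of all genes, and the palindromic NRF1 site in Etfdh, with 0.562%.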

How the data were processed

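The authors deposited 1 table of FPKM per gene and mouse, made with STAR and Cufflinks on mm10 per the submitters' processing notes. Libraries were stranded and depleted of ribosomal RNA per the labels' protocols; versions, annotation and counting strand are not given in the sources used here. Each library's FPKM was divided by a median-of-ratios factor, from 0.4807 in LFD 2 to 3.232 in placebo 4. Sums of deposited FPKM ran from 34449 to 105910, of which the small RNA Mir6236 took 10.16 to 53.09%. Read depth is not in the files; the steps between low FPKM values gave an estimate of 20.7 to 222 fragments for a scaled FPKM of 1 in a gene of 2 kb, with 60.4 to 71.2% of low values whole within 2%. Tests used limma 3.58.1 in R 4.3.3 with trend and robust moderation on log2(scaled FPKM + 1), all 3 groups in 1 fit and p-values adjusted over the 5615 tested genes in each comparison. The fit was also run on simulated data with independent noise per gene. Those data held no lane effect and no brown fat content shared between genes, so they do not bear on either. Replicates are separate mice. The members and lists were chosen with earlier results of these data known. Values per mouse are given for genes at control points of each route and for the called genes with the largest changes or smallest p in each class, and other pathway genes are named where fixed by list or among the 2 largest calls of a list. Alternatives changed the pseudocount, filter, scaling, moderation, lane, block, and mice. Terms for brown fat marker level and the fit without 3 mice were chosen after seeing the data. Some results are not reported here.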

Additional observations from a re-analysis of the deposited data

Results flagged for a closer look

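In 15 of 126 sets of 5 mice (42 genes in 3 groups), 1 mouse stood apart from the other 4 by a gap large against the range of its group; the rule by its construction picks about 1 in 20 sets by chance, and the 126 sets share mice, so these shares are not compared. LFD 2, the mouse with the highest brown fat marker level, was the high value in 10 of them. It had 18.91 scaled FPKM of Acadl (other LFD mice 6.704 to 9.515), 23.58 of Acadm (11.45 to 12.89), 16.29 of Acadvl (4.89 to 6.662), 12.51 of Hadha (4.891 to 5.856), 12.35 of Hadhb (3.685 to 5.982), 13.36 of Acaa2 (5.266 to 6.662) and 10.87 of Etfdh (3.885 to 4.979). It also had 4.029 of Cpt1b (other LFD mice at most 0.5135), 2.854 of Ehhadh (1.637 to 1.922) and 1.654 of Hacl1 (0.958 to 1.131). Placebo 4 had 2.751 of Abcd3, with the other HFD placebo mice at 1.633 to 1.823. Among HFD estradiol mice, estradiol 1 had 3.365 of Cpt1a (others 2.508 to 2.754), estradiol 4 had 12.26 of Etfb (10.08 to 10.65) and estradiol 5 had 1.321 of Ehhadh (0.8692 to 1). LFD 3 had 0.7839 of Pex10, with the other LFD mice at 0.4746 to 0.5606. The part of brown fat in these values was not tested.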

How the results depend on the processing

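For HFD estradiol vs HFD placebo, the 1706 genes called became 2606 without the filter on low values, 939 with a mean of at least 2, 276 with FPKM as deposited, 828 with a constant sum, 711 with lane as a term, 692 within lane 6 and 748 with lane and brown fat marker level. Of the called genes, 47.2% were higher, against 4.71% with FPKM as deposited and 31.3% with a constant sum. The 7 members called higher became 0 with FPKM as deposited, 1 with a constant sum, 1 with lane, 0 within lane 6, 18 without placebo 3, placebo 4 and LFD 2, 13 with marker level and 4 with lane and marker level, and ran from 4 (without placebo 5) to 14 (without placebo 4) with 1 mouse left out. The 1 called lower became 0 with FPKM as deposited. No share of all tested genes by direction is given for any comparison with 1 mouse left out, nor within lane 6. Those counts are therefore not read as particular to these genes. The mitochondrial median (0.072) became -0.27 with FPKM as deposited and 0.375 without those 3 mice, the peroxisomal median (0.25) became -0.087 with FPKM as deposited and 0.105 within lane 6, and the peroxin median (0.192) became -0.1, 0.069 with lane and 0.072 within lane 6. For HFD placebo vs LFD, the 2431 genes called became 3908 without the filter and 1317 with a mean of at least 2. The 16 members called lower became 0 with FPKM as deposited and 2 with a constant sum. The 1 called higher became 7 and 2. The median log2 fold change of all tested genes was 0.77 and 0.29 under those scalings, and no share of all genes is set beside these counts. With 1 mouse left out the count called higher ran from 1 to 2. The mitochondrial median became 0.816 with FPKM as deposited, the peroxisomal median 0.332, -0.191 with a constant sum and -0.817 with a pseudocount of 0.1, and the peroxin median 0.573, 0.095 and -0.327 under the same settings. For HFD estradiol vs LFD, the 432 genes called became 39 with FPKM as deposited, 162 with lane and 35 with lane and marker level. The 2 members called lower became 1 without the filter, with a mean of at least 2, with lane or with marker level, and 0 with FPKM as deposited, a constant sum, or lane and marker level; with 1 mouse left out they ran from 1 to 2. None called higher became 1 with a constant sum, and 0 to 1 with 1 mouse left out. The mitochondrial median became 0.506 with FPKM as deposited and 0.163 with a constant sum, the peroxisomal median 0.437, 0.155 and, with lane, -0.462, and the peroxin median 0.496, 0.227, -0.285 with lane and -0.202 with lane and marker level.

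With FPKM as deposited, log2 fold changes for HFD placebo vs LFD turned to 0.565 for Cpt2, 0.985 for Hadha, 0.939 for Hadhb, 0.449 for Hadh, 0.098 for Eci1, 0.599 for Etfa, 0.417 for Crat, 0.496 for Eci2, 0.017 for Ehhadh, 1.036 for Hsd17b4, 0.147 for Abcd2, 0.579 for Abcd3, 0.332 for Phyh, 0.231 for Hacl1, 0.257 for Scp2, 0.358 for Pex3, 0.529 for Pex5, 0.573 for Pex13 and 0.71 for Pex19. Outside the 42 genes they turned to 0.465 for Cat, 0.325 for Acad11, 0.139 for Nrip1, 0.184 for Pparg, 0.043 for Pdk2, 0.271 for Lpin1, 0.231 for Pdha1 and 0.312 for Pdhx. With a constant sum they turned to 0.036 for Abcd3, 0.07 for Pex5, 0.044 for Pex13 and 0.106 for Pex19. For HFD estradiol vs LFD, FPKM as deposited gave 0.215 for Crat, 0.122 for Lpin1 and 0.109 for Pdhx, and for HFD estradiol vs HFD placebo -0.062 for Pex5. In these scalings the factor per library was removed or set by the sum; the cause of the other shifts was not tested.

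Replicate numbers did not pair the mice: deviations of same-numbered mice correlated between -0.21 and 0.36. With a replicate block, 8 members were higher and 1 lower in HFD estradiol than in HFD placebo, with Hsd17b4 gained (0.25, adjusted p in limma = 0.0398). For HFD placebo vs LFD 16 were lower and 1 higher, with Abcd3 at an adjusted p in limma of 0.0502, and for HFD estradiol vs LFD 3 were lower and 0 higher, with Scp2 gained (-0.36, adjusted p in limma = 0.0345). Genes called under the block were 1685, 2427 and 431 in the 3 comparisons, and their shares by direction are not given here. Depth was least in LFD 2, at an estimated 20.7 fragments per scaled FPKM of 1 in 2 kb, which limits the genes below the tested level most.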
